A study of Gallus gallus with 8 samples.

Results

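The genes described here are 8 entries of the chicken liver expression table that carry names of cholesterol synthesis and sterol handling genes: HMGCS1, AACS, FDFT1, SQLE, LSS, EBP, STARD4 and SREBF2. They were chosen by gene symbol, in any letter case, and all 8 were found among 13427 entries. Livers came from 21-day-old broilers 2 h after lipopolysaccharide (LPS, from Escherichia coli) was given into the peritoneum at 1 mg/kg, while control birds got phosphate-buffered saline. Polyadenylated RNA was fragmented and sequenced either directly (input) or after pull-down with an antibody against N6-methyladenosine (m6A, a methylated form of the adenosines within mRNA), which is called IP. The 8 libraries form 4 groups, with 2 input and 2 IP libraries from control birds and as many of each from LPS birds. The labels do not say how many animals stand behind a library, so the p-values below measure only the spread between these libraries.

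Cells build cholesterol from acetyl-CoA. HMG-CoA synthase, encoded by HMGCS1, acts on the way to mevalonate, mevalonate is turned into isoprenoid units, and squalene synthase joins these into the first molecule that is committed to sterols. Squalene is then oxidised, closed into the sterol ring system and trimmed to cholesterol in the endoplasmic reticulum. In mammals most genes of the route are switched on together by SREBP-2, the transcription factor encoded by SREBF2, when membrane sterol is low, and the liver is one of the main sites of the route.

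One entry did not hold what its symbol says. EBP is the usual symbol of the sterol isomerase that acts late in the route, but the entry named EBP (ENSGALG00000026525) is described in the table as CCAAT/enhancer binding protein alpha, and the accession in that description belongs to CEBPA in RefSeq. The entry is a single exon of 267 bases at chr11:9780741-9781007 on the minus strand. CEBPA is a transcription factor of the liver cell and no enzyme of the sterol route. The entry is therefore called the EBP entry (CEBPA), it was left out of the counts of sterol steps, and the sterol isomerase was not analysed here.

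After LPS, HMGCS1 rose 4.15-fold while the other enzymes among the 8 entries, AACS, FDFT1, SQLE and LSS, fell between 3.65-fold and 30.2-fold. The sterol carrier STARD4 and the EBP entry (CEBPA) fell too. SREBF2 did not pass the test. Levels are FPKM, which count fragments per length of gene model and per sequencing depth, and folds are ratios of mean FPKM. Tests were made with limma on log2(FPKM + 1) over the 9484 genes whose mean reached 1 FPKM, with Benjamini-Hochberg adjustment over all of them and a threshold of 0.05. Of the 8 entries 1 was called higher and 6 lower, where 10.7% of all tested genes were called higher and 31.4% lower. Both LPS libraries lay below both controls in those 6 entries and above both in HMGCS1, which held for 55.8% and 18.4% of all tested genes. Both counts were the same with the libraries scaled to equal medians, where 14.1% of genes were higher and 16.8% lower. That scaling moved the median log2 change of all tested genes from -0.34 to -0.07. The 8 entries were chosen with earlier results of these data known, so their counts beside these shares are a description.

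**Figure D1:**
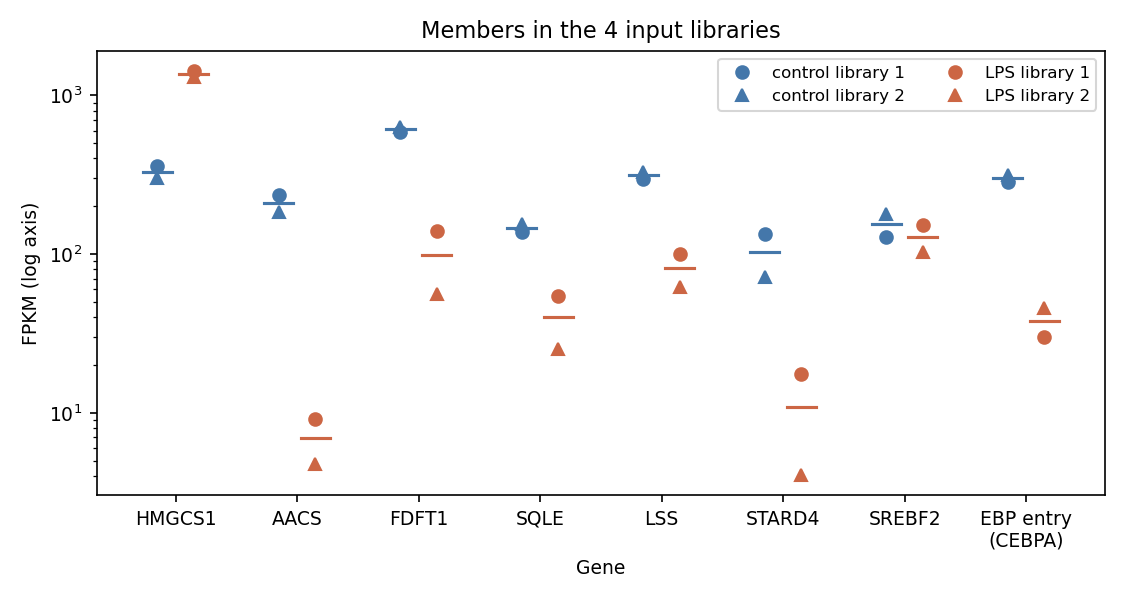
Expression of the 8 entries in each of the 4 input libraries, as FPKM on a log axis; each point is a library and each bar the mean of a group. HMGCS1 lies above both controls in both LPS libraries, SREBF2 overlaps between the groups, and the other 6 entries lie below both controls.

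HMGCS1, the cytosolic HMG-CoA synthase that condenses acetyl-CoA with acetoacetyl-CoA, stood at 359.2 and 300.2 FPKM in the control libraries and at 1424 and 1309 FPKM after LPS. Both LPS libraries lay far above both controls, and each pair lay close together. The mean went from 329.7 ± 41.7 to 1367 ± 81.2 FPKM (SD, n = 2), a log2 change of 2.05 with an SE of 0.18 (limma, adjusted p = 0.000161). Ordered by log2 change from the top, HMGCS1 was gene 223 of 9484. With equal medians its log2 change was 2.36.

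AACS, acetoacetyl-CoA synthetase, turns acetoacetate into acetoacetyl-CoA in the cytosol and so feeds ketone bodies into sterol and fatty acid synthesis. Its level was 235.2 and 185.1 FPKM in control and 9.16 and 4.75 FPKM in LPS libraries. The groups were widely apart, and AACS went from the middle of the order of levels to the lowest of the 8 entries. The log2 change was -4.78 with an SE of 0.28 (limma, adjusted p = 2.94e-05), which placed AACS 8th from the bottom of all tested genes. AACS had the largest fall among the 51 tested genes of the cholesterol lists used here.

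FDFT1, squalene synthase, draws farnesyl diphosphate into sterols. Its level was 584.9 and 634.5 FPKM in control and 140.4 and 55.9 FPKM in LPS libraries. The controls lay close together, the LPS libraries were lower and apart from each other. The mean went from 609.7 ± 35.1 to 98.2 ± 59.8 FPKM (SD, n = 2), a log2 change of -2.77 with an SE of 0.37 (limma, adjusted p = 0.00115).

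SQLE, squalene epoxidase, adds the oxygen that ring closure needs and is known as a control point of the route. Its level was 137.0 and 155.3 FPKM in control and 54.7 and 25.4 FPKM in LPS libraries. The groups did not overlap, and the LPS libraries again differed from each other more than the controls did. The log2 change was -1.94 with an SE of 0.32 (limma, adjusted p = 0.00288).

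LSS, lanosterol synthase, closes the sterol rings. It was at 297.0 and 328.3 FPKM in control and at 100.5 and 62.0 FPKM in LPS libraries, with no overlap. The log2 change was -1.97 with an SE of 0.24 (limma, adjusted p = 0.000737). The falls of SQLE and LSS were of like size, 3.65-fold and 3.85-fold, and that of FDFT1 was 6.21-fold; these differences between genes were not tested.

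STARD4, a soluble carrier that moves cholesterol between membranes, was at 134.1 and 72.1 FPKM in control and at 17.6 and 4.05 FPKM in LPS libraries. No LPS library reached a control, and both pairs were spread wide. The mean went from 103.1 ± 43.9 to 10.85 ± 9.62 FPKM (SD, n = 2), a log2 change of -3.36 with an SE of 0.56 (limma, adjusted p = 0.00287). This SE was the largest of the 8.

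SREBF2 was at 128.9 and 180.1 FPKM in control and at 153.2 and 102.6 FPKM in LPS libraries. The groups overlapped, and the difference between them was smaller than the spread within them. Its log2 change was -0.28 with an SE of 0.25 (limma, adjusted p = 0.394), and it was 0.03 with equal medians, so no direction can be given.

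The EBP entry (CEBPA) was at 285.5 and 316.5 FPKM in control and at 30.0 and 45.6 FPKM in LPS libraries. The groups were far apart and, unlike in AACS, FDFT1, SQLE and LSS, the second LPS library was the higher of the pair. The log2 change was -2.99 with an SE of 0.22 (limma, adjusted p = 7.63e-05). The level rests on a gene model of 267 bases.

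The order of the levels changed between the groups. In control liver FDFT1 was highest, followed by HMGCS1, LSS and the EBP entry (CEBPA), whose neighbouring ranges overlapped. AACS came next, then SREBF2 and SQLE, which overlapped, and STARD4 was lowest. In LPS liver HMGCS1 was highest by a wide margin, 1367 FPKM against 127.9 FPKM for SREBF2. SREBF2, FDFT1 and LSS overlapped from neighbour to neighbour, as did SQLE and the EBP entry (CEBPA), and then STARD4 and AACS.

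HMGCS1 was set against the later steps within each library, as the ratio of its FPKM to that of the other gene. To FDFT1 the ratio was 0.614 and 0.473 in control libraries and 10.1 and 23.4 in LPS libraries. To SQLE it was 2.62 and 1.93 in control, and 26.1 and 51.6 with LPS. To LSS it was 1.21 and 0.915 in control, against 14.2 and 21.1 with LPS. In every case both LPS ratios lay above both control ratios by a wide gap. That follows from the levels above, as HMGCS1 was higher and these genes lower in both LPS libraries. It is no separate result. Control liver held less HMGCS1 than FDFT1 per length, and LPS liver held more.

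The difference of the responses was tested in limma on the within-library difference of log2(FPKM + 1). Relative to HMGCS1 the log2 change was -4.82 for FDFT1 (SE 0.39, adjusted p = 6.83e-06), -3.99 for SQLE (SE 0.35, adjusted p = 7.87e-06) and -4.02 for LSS (SE 0.30, adjusted p = 6.18e-06). It was -6.83 for AACS (SE 0.29, adjusted p = 2.61e-06) and -5.41 for STARD4 (SE 0.51, adjusted p = 9.81e-06). SREBF2, which did not pass the test on its own, changed by -2.33 relative to HMGCS1 (SE 0.32, adjusted p = 7.82e-05). Since HMGCS1 itself rose, 95.2% of all tested genes were called lower relative to it, and all of these differences share the same 4 values of HMGCS1. The calls alone therefore set none of these genes apart.

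**Figure D2:**
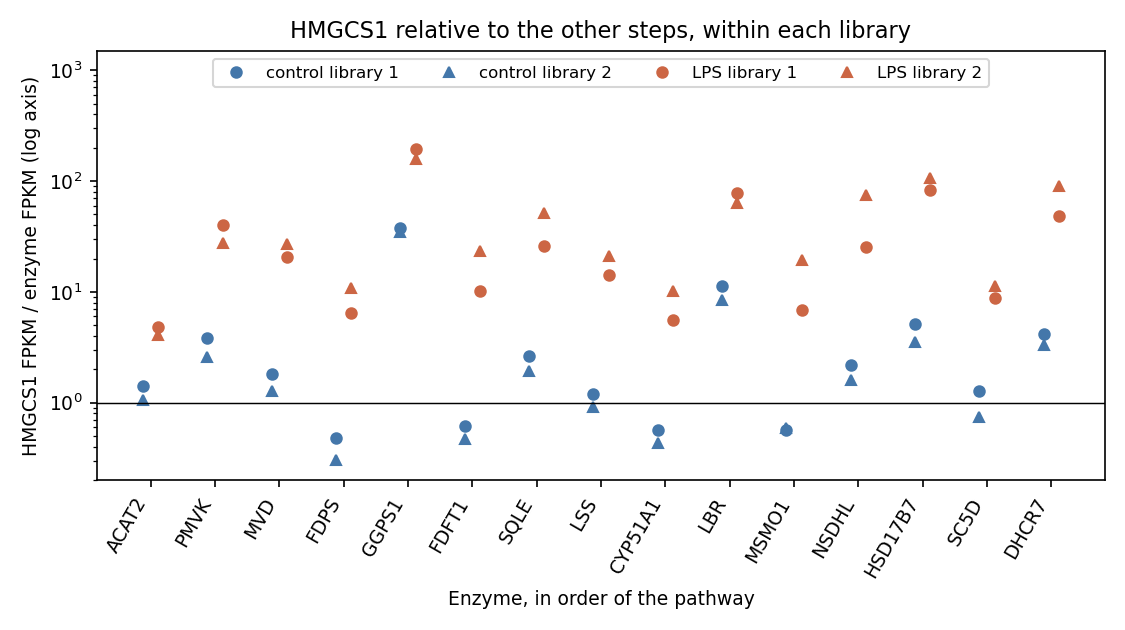
Ratio of HMGCS1 FPKM to the FPKM of each other step of the route in each input library, on a log axis, with a line at 1. The LPS points lie above the control points at all 15 steps, with the smallest LPS ratio, 4.06, at ACAT2.

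The wider route was read from lists of its steps. Of 6 mevalonate and isoprenoid steps 1 rose (HMGCS1), 3 fell and 2 were not called, where 10.7% of all tested genes were called higher and 31.4% lower. With equal medians 1 rose and 3 fell, where 14.1% of all genes were higher and 16.8% lower. PMVK (-1.32) and MVD (-1.89), which phosphorylate and decarboxylate mevalonate products, and FDPS (-2.40), which makes farnesyl diphosphate, fell. ACAT2, the cytosolic thiolase that makes acetoacetyl-CoA just before HMGCS1, had a log2 change of 0.19 (limma, adjusted p = 0.379). GGPS1, which leads off to longer isoprenoids, had -0.19, and 0.09 with equal medians, without a call.

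All 10 steps listed from squalene synthase to cholesterol fell, with a median log2 change of -2.01, and 9 of the 10 did with equal medians, where 31.4% and 16.8% of all tested genes were called lower. After LSS these were CYP51A1 (-1.87) and MSMO1 (-2.25), which start the removal of the methyl groups, NSDHL (-2.43) and HSD17B7 (-2.32), which complete it, SC5D (-1.30) and DHCR7 (-2.05), which set double bonds of the ring late in the route, and LBR. LBR, a sterol reductase that is also a receptor of the nuclear lamina, had the smallest fall (-0.75), and its call was lost with equal medians (limma, adjusted p = 0.1) and without the first LPS library (adjusted p = 0.0587). Over the 15 listed steps other than HMGCS1, 13 fell, 0 rose and 2 were not called, with a median log2 change of -1.94, against -0.34 for all tested genes. These lists were drawn up with results of these data known, so the counts are a description.

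**Figure D3:**
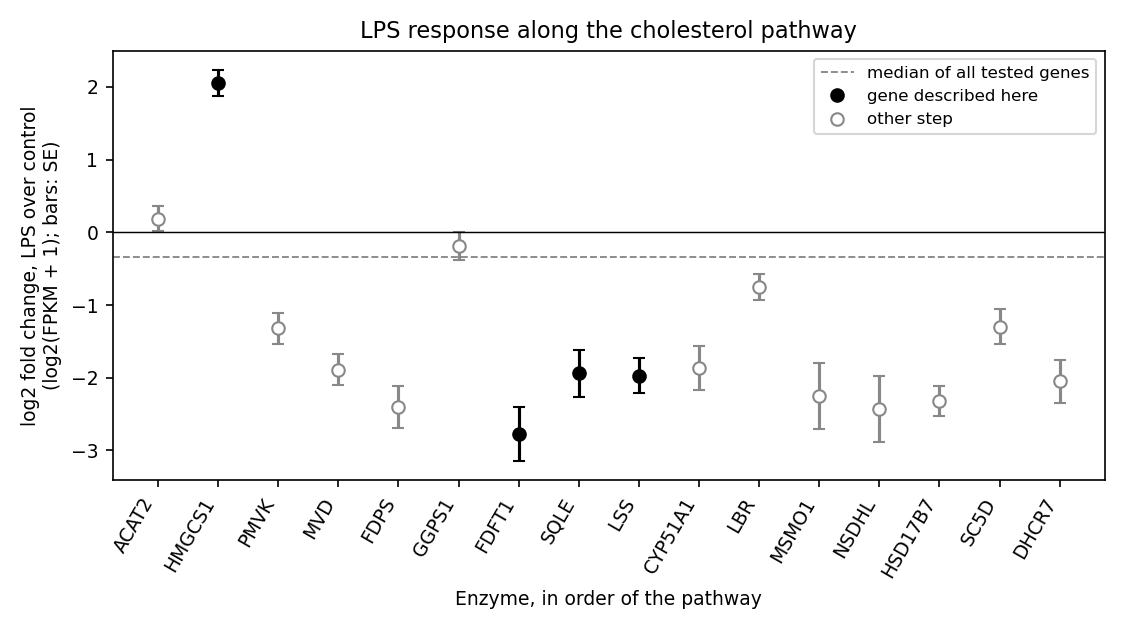
Log2 fold change, LPS over control, for 16 steps of cholesterol synthesis in the order of the route; bars are the SE from limma and the dashed line is the median of all tested genes, -0.34. HMGCS1 stands at 2.05, ACAT2 and GGPS1 lie near 0, and the other 13 steps lie between -2.77 and -0.75.

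Among the 4 genes that supply acetyl-CoA and acetoacetyl-CoA, AACS, ACLY (-2.62) and the citrate carrier SLC25A1 (-1.23) fell. Over all tested genes 31.4% were called lower and 10.7% higher. With equal medians 3 of the 4 were lower and 1 higher, where 16.8% of all genes were lower and 14.1% higher. ACLY, ATP citrate lyase, makes cytosolic acetyl-CoA from citrate, and went from 985.3 to 169.3 FPKM. ACSS2, which makes acetyl-CoA from acetate, rose from 35.3 ± 18.3 to 78.5 ± 8.38 FPKM (SD, n = 2), a log2 change of 1.22 (limma, adjusted p = 0.0189). Its call was lost without the filter on low values (limma, adjusted p = 0.0619). The value rested on which control library was kept, with a log2 change of 1.76 without the first and 0.69 without the second.

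Of the 11 tested genes of sterol sensing 6 fell, 1 rose and 4 were not called, SREBF2 among the last, where 31.4% of all tested genes were called lower and 10.7% higher. With equal medians 3 fell and 1 rose, where 16.8% of all genes were lower and 14.1% higher. SREBF1, the second SREBP gene, which mainly drives fatty acid synthesis, fell from 173.2 and 164.4 FPKM to 18.7 and 21.3 FPKM, a log2 change of -3.02 (limma, adjusted p = 2.49e-05). SCAP, the escort that carries SREBP proteins to the Golgi, fell from 85.9 and 85.0 FPKM to 14.9 and 15.1 FPKM, a log2 change of -2.43 (limma, adjusted p = 4.8e-05). The libraries of each group lay close together for both genes. INSIG1, which holds SCAP back when sterol is plentiful, had a log2 change of -1.86 (limma, adjusted p = 0.00825), and missed the threshold without the first control library (adjusted p = 0.0573). INSIG2 had a smaller fall of -0.74, which was lost with equal medians (limma, adjusted p = 0.159), without the first control library (log2 change -0.49, adjusted p = 0.115) and without the second LPS library (adjusted p = 0.0778). NR1H3, the oxysterol receptor LXR alpha, had a log2 change of 0.51 (limma, adjusted p = 0.0393), a call that was lost on leaving out any of the 4 libraries.

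In uptake and transport, 7 of 11 tested genes fell, 0 rose and 4 were not called, where 31.4% of all tested genes were called lower. With equal medians 5 fell, where 16.8% of all genes did. STARD4 had the largest change of them. NPC1 (-1.87) and NPC2 (-0.83), which bring cholesterol out of lysosomes, and MYLIP (-1.33), a ubiquitin ligase under sterol control, fell. So did GRAMD1B (-1.38) and GRAMD1C (-1.16), which move sterol from the plasma membrane to the endoplasmic reticulum. The call of NPC2 was lost with equal medians (limma, adjusted p = 0.0536).

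The LPS libraries differed from each other in some of the sterol genes that fell and lay close together in others. The level in the first over that in the second was 2.51 for FDFT1, 2.16 for SQLE, 1.62 for LSS, 1.93 for AACS and 4.36 for STARD4, but 1.09 for HMGCS1 and 0.659 for the EBP entry (CEBPA). The same ratio had a median of 1.02 over all tested genes, and 1.35% of them had one at least as large as that of FDFT1. For STARD4 that share was 0.496%. Of the 10 listed steps from squalene synthase on, 9 were lower in the second LPS library, with a median ratio of 2.02. Over all 54 pathway entries 34 were lower in the second LPS library, with a median ratio of 1.16. Of all 9484 tested genes 5057 were lower in the second LPS library. Among other genes that fell, the ratio was 0.988 for SCAP, 0.878 for SREBF1, 0.740 for PMVK and 0.884 for LBR. It was 2.64 for INSIG1, 2.04 for ACLY, 1.86 for NPC1 and 1.83 for FDPS. Of the hepatocyte markers called lower, TTR had 2.12, AHSG 1.53 and HNF4A 0.44. The split was thus seen in genes outside sterol synthesis too. This was seen after the values were known and is given without a test. Leaving out the first LPS library moved the log2 change of FDFT1 to -3.42 and of STARD4 to -4.30, and leaving out the second moved them to -2.11 and -2.41. MSMO1 ranged in the same way from -3.07 to -1.44, NSDHL from -3.24 to -1.61 and INSIG1 from -2.54 to -1.17. All of these changes stayed negative. With 1 LPS library left, the spread between the LPS libraries drops out of the test, so a call kept there is no check on that spread.

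Across all genes, Spearman correlations were 0.976 between the controls, 0.978 between the LPS libraries and 0.914 to 0.922 across groups. In bulk tissue, fewer cells of a type and less RNA per cell cannot be told apart. Of 11 hepatocyte markers 4 were called higher and 3 lower, where 10.7% of all tested genes were called higher and 31.4% lower. Their summed level was 73670 and 70680 FPKM in control and 81710 and 81200 FPKM in LPS libraries. The 4 higher ones were the fibrinogen genes FGA, FGB and FGG and the transferrin gene TF. Their rise is part of that sum, so the sum is no measure of hepatocyte content. HNF4A, a transcription factor that defines hepatocytes, was among the lower ones (41.9 and 55.1 against 1.66 and 3.80 FPKM), while albumin was not called (22930 and 16540 against 22580 and 23320 FPKM). With equal medians 5 of the 11 hepatocyte markers were called higher and 2 lower, where 14.1% of all genes were higher and 16.8% lower. Macrophage markers were lower (8 of 9 called, summed level 1325 and 1526 against 984.3 and 908.0 FPKM), as were 5 of 8 endothelial markers, where 31.4% of all tested genes were called lower. With equal medians 6 of the 9 and 3 of the 8 were called lower. Of 4 tested bile duct markers SPP1 and EPCAM were called higher and SOX9 lower, where 10.7% of all tested genes were higher and 31.4% lower. The call of SOX9 was lost with equal medians (limma, adjusted p = 0.0998). KRT19 was not called (7.24 and 14.65 against 3.09 and 7.34 FPKM), and CFTR, not tested, was near 0 in all 4 libraries. The summed level of the bile duct markers was 81.8 and 171.1 against 584.4 and 806.7 FPKM, mostly SPP1. The part of these shifts in the results above was not tested.

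The genes whose pattern over the 4 input libraries lay closest to HMGCS1 were DSG2, PTPN2, CPNE8, ARID2 and DTX3L, with Euclidean distances of 0.12 to 0.16 on the log2(FPKM + 1) scale centred on the control mean. None of these 5 is a step of the sterol route. Closest to the mean of FDFT1, SQLE, LSS and the EBP entry (CEBPA) were PDHA1, HSD17B7, ANKH, FDPS and GGACT, at 0.20 to 0.28, of which HSD17B7 and FDPS are steps of the route. With the EBP entry (CEBPA) taken out of the mean, a choice made after seeing the data, they were GATM, ACSM4, MPP1, DHCR7 and PDHA1, at 0.19 to 0.29.

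The m6A peaks come from 1 list for each treatment, so they have no replicates and no test, and a peak that is absent from a list may have missed the caller's threshold. The value of a peak is the authors' fold enrichment of IP over input. The control list held 11 peaks in 7 of the 8 entries and the LPS list 6 peaks in 4, where 50.5% of tested genes had a control peak and 41.0% an LPS peak. Of the 11 control peaks 6 overlapped an LPS peak by at least 1 base and 5, or 45.5%, did not, against 35.9% of all control peaks. All 5 were assigned to genes that fell: FDFT1, SQLE, STARD4 and LSS. The annotation of the FDFT1 peak among them names another gene entry, as given below. In the 6 entries that fell, 5 of 8 control peaks, or 62.5%, had no LPS partner. Over all genes that fell by at least 1 log2 unit, 56.3% of control peaks had none. The share was 31.7% over genes that moved less and 4.94% over genes that rose by at least 1 log2 unit. None of the 6 LPS peaks lacked a control partner, against 12.4% of all LPS peaks. AACS had no peak in either list.

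**Figure D4:**
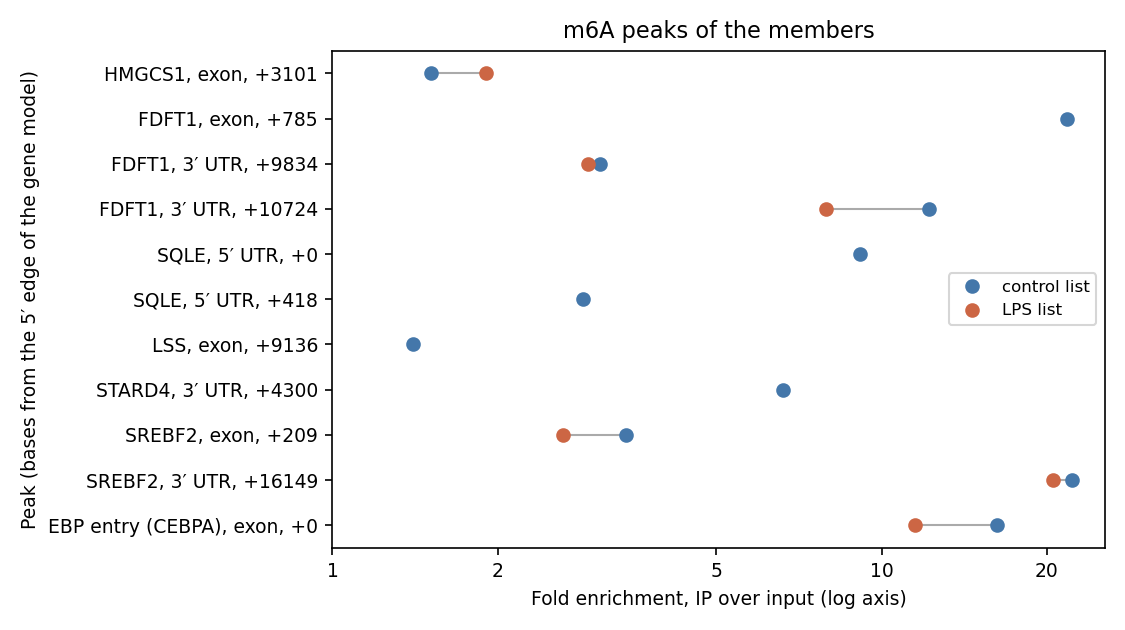
Fold enrichment of IP over input for each m6A peak of the 8 entries in the control and the LPS list, on a log axis, with each peak named by its gene, its annotation and its distance in bases from the 5′ edge of the gene model. SREBF2 has the most enriched peak shared by both lists (22.2 and 20.5), HMGCS1 is the only gene whose shared peak is higher in LPS, and 5 peaks stand in the control list alone.

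HMGCS1 carried 1 weak peak in exon 2 of 11. In the control list it spanned chrZ:13520998-13521057, 60 bases on the minus strand, with a fold enrichment of 1.51, and in the LPS list chrZ:13520910-13521087, 178 bases, with 1.90. The ratio of 1.26 was at or above 1 unlike in the other 5 shared peaks, and 13.9% of all shared peaks had a ratio at least as high. The peak is near the bottom of its list, as 98.6% of control peaks had a fold enrichment at least that of HMGCS1. The region called in the gene that rose among the 8 was thus wider and slightly more enriched in the LPS list, at a low level in both lists. The values cover stretches of unlike length, and the input level of HMGCS1 was 4.15-fold higher with LPS, so no difference in methylation is shown.

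FDFT1 had a pair of shared 3′ UTR peaks and 1 in control alone. The peak at the 3′ edge of the gene, chr3:106996397-106996753 on the plus strand, had a fold enrichment of 12.2 in control and 7.91 in LPS, a ratio of 0.648. It was the only one of the 6 shared peaks that differed by at least 1.5-fold, where 27.7% of all shared peaks were lower by that much and 7.13% higher. The called stretches were 357 bases in control and 208 in LPS. The input level of FDFT1 was 6.21-fold lower with LPS, so no difference in methylation is shown. The other 3′ UTR peak, chr3:106995507-106995685, had 3.07 and 2.92. The control-only peak, chr3:106986458-106986606, had 21.8 and was assigned by the authors to FDFT1, but its annotation names the single exon of another gene entry at the same place, so which transcript carried it cannot be told apart.

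SQLE had 2 peaks in its 5′ UTR, both in control alone. The one at the very start of the gene, chr2:138265073-138265312 on the plus strand, had a fold enrichment of 9.12, and the other, chr2:138265491-138265730, had 2.86. STARD4 had 1 peak in its 3′ UTR at chrZ:46337666-46337906 on the plus strand, 6.60 in control alone. LSS had 1 in exon 22 of 23 at chr7:6911194-6911255 on the minus strand, 1.40 in control alone, and 99.3% of control peaks were at least as enriched.

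SREBF2, whose level was not called, had both of its peaks in both lists. The 3′ UTR peak at the end of the gene, chr1:49351394-49351633 on the minus strand, had a fold enrichment of 22.2 in control and 20.5 in LPS, and 10.2% of control peaks were at least as enriched. The peak in exon 1 of 19, chr1:49367318-49367573, had 3.43 and 2.63. The ratios, 0.923 and 0.767, lay on either side of the median of all shared peaks, 0.845. The EBP entry (CEBPA) had a peak over its whole length of 267 bases in control, with a fold enrichment of 16.2. In the LPS list the peak covered 237 bases with 11.5, a ratio of 0.71. Across the 15 listed sterol synthesis steps other than HMGCS1, 21 control peaks lay in 13 genes and 8 LPS peaks in 7. Of these control peaks 13, or 61.9%, had no LPS partner, near the 56.3% of control peaks in all genes that fell by at least 1 log2 unit. The sets are not fully alike, as ACAT2, GGPS1 and LBR are among these steps but moved by under 1 log2 unit. No LPS peak of these steps lacked a control partner, against 12.4% of all LPS peaks.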

How the data were processed

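The members and gene lists were chosen with earlier results of these data known. Per the labels' protocols, poly(A) RNA was fragmented and strand was marked with dUTP; whether counting used strand is not given in the sources used here. HISAT2, StringTie, HOMER and ChIPseeker are named per the submitters' processing notes, without roles. The genome build, peak caller and threshold: not given in the sources used here; coordinates are the files' own. The authors deposited FPKM for each input library; read counts were not used here, and absolute depth is unknown. From the step between values under 0.1 FPKM, depth relative to control library 1 was 0.858, 0.818 and 0.891 in control library 2, LPS library 1 and LPS library 2. Each is the most frequent ratio, the smallest where tied. They rest on 10, 12 and 12 genes of 217, 214 and 226, so they are rough. FPKM summed to 539984 and 568721 in the controls and to 547261 and 560738 with LPS. The authors deposited 1 peak list for each treatment, giving a fold enrichment (the IP to input ratio), a p-value and its base-10 logarithm, which is taken as a score, for each peak. The columns and list named as treated were taken as LPS. The lists hold 7814 and 5939 entries, of which 1 exact repeat each was dropped.

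Symbols are those of the table, or were looked up by accession in a RefSeq table (GRCg7b), used for names alone. Of 54 unique matched entries of the 7 pathway lists, 51 were tested; a few genes are not reported here and enter no list count; the EBP entry (CEBPA) was kept out of these. Levels were tested in limma 3.58.1, R 4.3.3 (trended prior variance) on log2(FPKM + 1), 2 against 2, two-sided, for genes whose mean reached 1 FPKM; this scale understates the change of low genes. With 2 residual degrees of freedom, limma's estimate of the spread leans on all genes (prior degrees of freedom 5.72). Standard errors are limma's. The procedure was run on simulated data to check that it returned the changes put in, which does not show its error rate in these data. Peaks were handled in Python 3.11.15 with numpy 2.4.6 and pandas 2.3.3, and plots drawn with matplotlib 3.10.9; peaks were shared when exon blocks overlapped by at least 1 base on the same strand. Named genes are the 8 entries, genes of the pathway lists, and the 5 tested genes nearest to HMGCS1 and to the mean of FDFT1, SQLE, LSS and EBP. Alternatives were a pseudocount of 0.1, no filter, equal medians, leaving out each library, the replicate number as a block, a fold enrichment of at least 4, a peak difference of at least 2-fold and an overlap of 0.5 of the shorter peak.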

Additional observations from a re-analysis of the deposited data

How the results depend on the processing

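The 8 entries gave 120 alternative values, of their own change and, except for HMGCS1, of their change relative to HMGCS1. Since 95.2% of all tested genes were called lower relative to HMGCS1, values of the latter kind could hardly lose a call. Of the 120 values 118 kept direction and side of the threshold and 0 lost a call. The exceptions were SREBF2, never called, at 0.03 with equal medians and between -0.57 and 0.01 on leaving out a library. GGPS1, never called, was at 0.09 with equal medians. Called pathway genes, ACAT2 and GGPS1 gave 264 values, of their own change alone, of which 223 held and 40 lost a call. The counts of 1 higher and 6 lower entries held in every alternative run. Over all genes, 1594 were lower with equal medians in place of 2982. On leaving out a library, 838 to 923 genes were higher and 2097 to 2494 lower. Without either LPS library, limma's prior degrees of freedom were infinite, so those p-values rest on the spread of all genes. With a fold enrichment of at least 4, the entries had 6 control peaks, 3 LPS peaks and 3 shared peaks; at a 2-fold difference 0 shared peaks differed. Absolute depth is unknown, so a peak missing from a list was not detected there and is not shown to be absent.

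Libraries with the same replicate number did not deviate together across genes (r = 0.0292). The labels do not say whether the numbers pair the libraries, and this value cannot settle it. With the replicate block, 1071 genes were higher and 3150 lower, and the entries kept 1 and 6; of the other named genes NR1H3 lost its call (limma, adjusted p = 0.0547).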

Other observations

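Gene lists next to the route gave the following counts. Of 4 genes of ketone body synthesis and use 1 fell, 0 rose and 3 were not called. Over all tested genes 31.4% were called lower and 10.7% higher. With equal medians 0 of the 4 fell, where 16.8% of all genes were lower. Of 5 tested genes of esterification and export 4 fell, among them the exporter ABCA1 (-1.67) and the plasma esterifying enzyme LCAT (-0.82), where 31.4% of all tested genes were called lower. With equal medians ABCA1 alone kept its call, where 16.8% of all genes were lower, and LCAT lost it (limma, adjusted p = 0.0641).

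CEBPB, the sister factor of CEBPA, was looked up after the description of the EBP entry was seen. It was at 272.7 and 327.9 FPKM in control and at 822.2 and 955.1 FPKM in LPS libraries (limma, log2 change 1.56, adjusted p = 0.000615), where the EBP entry (CEBPA) fell.

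The highest fold enrichments among the sterol genes lay outside the 8 entries. SREBF1 had an exon 1 peak of 134 in control and 23.8 in LPS, a ratio of 0.178 that 35 of 5006 shared peaks reached or fell below. The called stretches were 329 bases in control and 269 in LPS, and the input level of SREBF1 was 8.44-fold lower with LPS. No difference in methylation is therefore shown. SC5D had a 5′ UTR peak of 123 in control alone, and 1.06% of control peaks were at least as enriched.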
